A study of Mus musculus with 4 samples.

Results

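The CC chemokines examined here were Ccl2, Ccl7, Ccl8, Ccl12, Ccl5, Ccl9, Ccl17, Ccl20, Ccl25 and Ccl28, 10 genes that include the monocyte attractants. They were chosen by name: every transcript probe that the scanner files name for 1 of these genes was taken, which gave 13 of the array's 39429 probes and at least 1 probe for each gene. Ccl25 had 4 probes and the other genes had 1 each. Primary kidney tubular cells had been prepared from male mice, 8 weeks old, on a B6.J background, either wild type or SerpinB2-/-, and grown in renal growth medium. All cultures, wild type included, had been given PMA, a phorbol ester and activator of protein kinase C, at 100 ng/ml, so genotype is what the labels vary between the groups, and no untreated cells were analysed here. Total RNA was hybridised in 1 colour (Cy3) to 4 arrays, 2 of wild type cells and 2 of SerpinB2-/- cells. How the SerpinB2 allele was made, how many animals gave each culture and whether arrays of a genotype came from separate cultures is not given in the sources used here, so the p-values measure only the spread between these samples, which may be technical.

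Chemokines are small secreted proteins that bind G protein-coupled receptors on leukocytes and direct their movement. CC chemokines carry a pair of adjacent cysteines near the amino terminus. Ccl2, Ccl7, Ccl8 and Ccl12 are the monocyte chemoattractant proteins of the mouse. Ccl2, Ccl7 and Ccl12 act through Ccr2 and related receptors, and injured kidney tubular epithelium is a known source of Ccl2. The Ccl2, Ccl7, Ccl8 and Ccl12 genes lie close together on chromosome 11, and transcription of Ccl2 is known to be driven by NF-kB and AP-1. SerpinB2 is plasminogen activator inhibitor type 2, an inhibitor of urokinase that is found mostly inside cells.

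Because Ccl2, Ccl7, Ccl8 and Ccl12 are related genes, the letters that told them apart on the array are shown first. Each probe was 60 bases long, and the first 30 bases of each, 5′ to 3′ as given in the scanner files, were as follows.
Ccl2: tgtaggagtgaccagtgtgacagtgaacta
Ccl7: ttctgagaactgttgatgaaatgtgttgat
Ccl12: cctgaagttccccacgggcagtgtgatatt
Ccl8: accagaagtctcaaattctgcagccttgaa
Over the whole 60 bases, the longest run of identical letters in any of the 6 pairs among these probes was 8 bases. Over the 72 pairs of probes of different genes among the 13, the longest shared run was 9 bases.

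The targeted gene was read first. The Serpinb2 probe gave processed signals of 3047 and 3382 on the wild type arrays, and of 5.86 and 7.04 on the SerpinB2-/- arrays. It did not stand well above background, by the scanner software's own mark, on either SerpinB2-/- array. Serpinb2 was at least 139.7-fold lower there, with the dim arrays set at the lowest signal that was well above background. The fit itself used the signals without that floor (log2 change -8.99, adjusted p = 0.000689, limma with Benjamini-Hochberg adjustment). Whether this probe lies in the deleted stretch is not given in the sources used here. From 23409 to 24476 probes on an array had that mark. The signal of no spot was saturated. With 2 arrays per genotype, their number limits the precision. Probes of 13 of the 15 tubular epithelial markers passed the detection filter. Those of Umod and Slc12a3, which mark the thick ascending limb and the distal convoluted tubule, did not. That of Aqp2, a collecting duct marker, passed, with signals of 165 and 187 in wild type cells, against 158 and 153 in SerpinB2-/- cells. Probes of 9 of 11 fibroblast and 10 of 12 endothelial markers also passed.

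Ccl2, Ccl7, Ccl12 and Ccl9 were lower in SerpinB2-/- cells, by 1.69-fold to 2.91-fold, and none of the 10 chemokines was higher past the threshold. Of the 10, 8 were bright enough to be tested, and each of these 8 was well above background on all 4 arrays. With a threshold of 0.05 on the adjusted p from limma, 4 of the 8 fell and 0 rose. At an unadjusted p under 0.05 by limma the counts were the same, 4 lower and 0 higher. Over all 18392 genes tested, that unadjusted p gave 3429 lower and 2860 higher. At the adjusted threshold, 15.7% of the 18392 genes passed in either direction (2884 genes), 9.67% lower (1779) and 6.01% higher (1105). Scaling each array on its median instead gave 1245 lower and 4338 higher and moved the median change of all genes from 0.01 to 0.14 on the log2 scale. The median log2 change of the 8 chemokines was -0.47, beside 0.01 over all genes. Without either wild type replicate, 2 of the 8 passed, Ccl2 and Ccl7. With no filter on dim probes, which tested 29875 genes and passed 3 of them, none of the chemokines passed, and Ccl2 had the lowest adjusted p of the 10 at 0.0689 by limma. In bulk RNA, fewer cells of a type and less RNA per cell cannot be told apart.

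**Figure D1:**
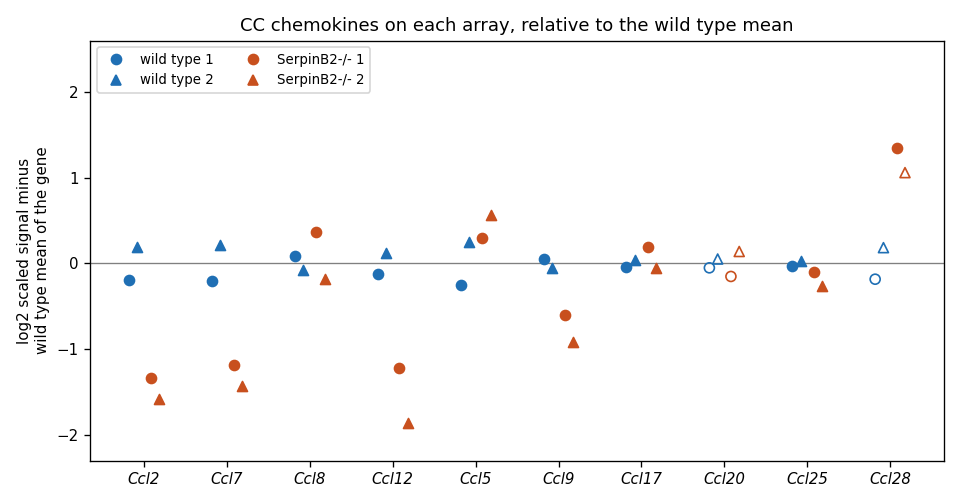
Log2 scaled signal of each chemokine on each of the 4 arrays, minus the wild type mean of the gene (brightest probe of Ccl25), with circles for replicate 1, triangles for replicate 2, and filled symbols where the probe was well above background. Both SerpinB2-/- points of Ccl2, Ccl7, Ccl12 and Ccl9 lie below both wild type points, an order that 31.9% of all genes tested had. Those of Ccl8 and Ccl17 lie on either side of the wild type points, and all Ccl20 points are open.

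Ccl2 (monocyte chemoattractant protein 1), the main ligand of Ccr2 and the major signal that brings monocytes out of the bone marrow and into inflamed tissue, was read by a probe at chr11:81850650-81850709, plus strand, in build mm9. Its processed signal was 12002 and 17010 on the wild type arrays, and 6127 and 4575 on the SerpinB2-/- arrays. Both SerpinB2-/- values lay below both wild type values. After scaling, 31.9% of all genes tested had this order, and 64.3% had genotypes that did not overlap in either direction. After each array was divided by its own 75th percentile of signal, the means stood 1.46 apart on the log2 scale, a 2.75-fold fall (log2 change -1.46 ± 0.16 SE, n = 2 arrays per genotype, 95% interval -1.87 to -1.05, adjusted p = 0.0108 by limma). Replicates lay 0.38 apart in wild type and 0.25 apart in SerpinB2-/- cells, so the difference between genotypes was larger than either gap. The 4 printed copies of the probe on an array agreed within an SD of 0.050 to 0.083 on the log2 scale.

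Ccl7 (monocyte chemoattractant protein 3), which attracts monocytes and several other leukocytes, was read at chr11:81860656-81860715, plus strand. Its signal was 765 and 1113 in wild type cells, against 438 and 329.7 in SerpinB2-/- cells. The order of the 4 arrays was that seen for Ccl2, with the second wild type array highest and the second SerpinB2-/- array lowest. The fall was 2.48-fold (log2 change -1.31 ± 0.17 SE, n = 2 per genotype, 95% interval -1.74 to -0.88, adjusted p = 0.0141 by limma).

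Ccl12 (monocyte chemoattractant protein 5), a mouse chemokine that also acts on Ccr2, was read at chr11:81916764-81916823, plus strand. Its signal was 595 and 769.8 in wild type cells, against 314 and 179 in SerpinB2-/- cells. The genotypes did not overlap, and the SerpinB2-/- arrays lay 0.64 apart on the log2 scale, against 0.25 between the wild type arrays. Ccl12 fell 2.91-fold, with the widest interval of the 4 (log2 change -1.54 ± 0.23 SE, n = 2 per genotype, 95% interval -2.13 to -0.95, adjusted p = 0.0197 by limma). Without wild type replicate 1 its adjusted p was 0.0580, and without wild type replicate 2 it was 0.0759.

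Ccl8 (monocyte chemoattractant protein 2), which lies next to Ccl12, did not pass the threshold. Its probe, at chr11:81930108-81930167, plus strand, gave signals of 41.7 and 40.5 in wild type cells, against 57.3 and 34.7 in SerpinB2-/- cells. The SerpinB2-/- arrays held both the highest and the lowest value, so the genotypes overlapped. These signals were close to the lowest that was well above background on an array, 22.3 to 25.4. The log2 change was 0.09 ± 0.19 (SE, n = 2 per genotype; 95% interval -0.41 to 0.59; adjusted p = 0.774 by limma). That interval does not reach the falls of Ccl2, Ccl7 and Ccl12.

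**Figure D2:**
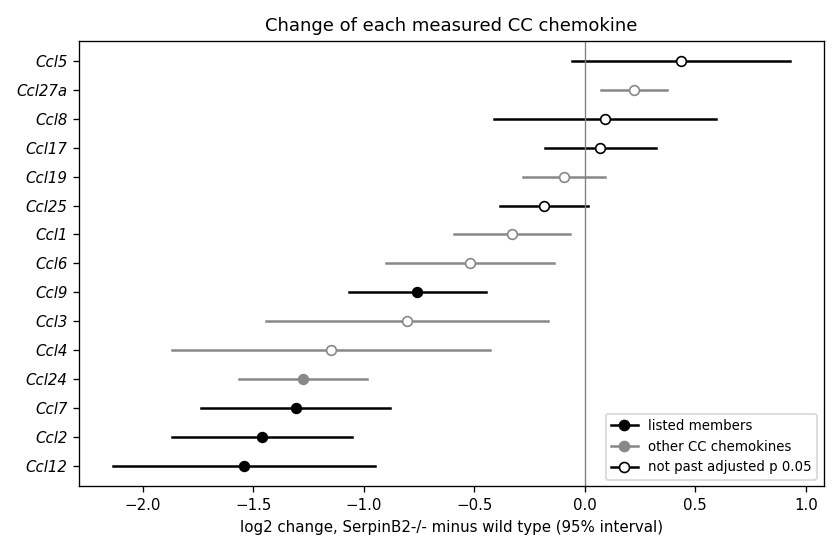
Log2 change (SerpinB2-/- minus wild type) of the 8 tested chemokines (black) and of 7 other tested CC chemokines (grey) as points with 95% intervals, from limma on 2 arrays per genotype, filled where the adjusted p was under 0.05. The intervals of Ccl2, Ccl7, Ccl12 and Ccl9 lie below 0, and those of Ccl8, Ccl17, Ccl25 and Ccl5 hold 0. Among the grey genes, those of Ccl1, Ccl3, Ccl4, Ccl6 and Ccl24 also lie below 0, with only Ccl24 filled. That of Ccl27a lies above 0 and that of Ccl19 holds 0.

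Ccl9 (macrophage inflammatory protein 1 gamma), a ligand of Ccr1, also fell, with a smaller fitted change than Ccl2, Ccl7 and Ccl12. Its probe, at chr11:83388223-83388282, minus strand, gave signals of 2855 and 2902 in wild type cells, against 2053 and 1468 in SerpinB2-/- cells. Both SerpinB2-/- values were lower than both wild type values. The fall was 1.69-fold (log2 change -0.76 ± 0.12 SE, n = 2 per genotype, 95% interval -1.07 to -0.45, adjusted p = 0.0223 by limma). Without wild type replicate 1 the adjusted p of Ccl9 was 0.0880, and without wild type replicate 2 it was 0.0718. Of all genes tested, 2.65% (487 genes) had a fitted fall at least as large as that of Ccl9, and 0.506% (93 genes) one at least as large as that of Ccl7.

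Ccl5 (RANTES), a chemokine that attracts T cells and monocytes, lies close to Ccl9 and did not pass the threshold. Its probe, at chr11:83339296-83339355, minus strand, gave signals of 308 and 473 in wild type cells, against 508 and 545 in SerpinB2-/- cells. Both SerpinB2-/- values were above both wild type values, and the second wild type array lay closer to the SerpinB2-/- arrays than to the first. The log2 change was 0.44 ± 0.19 (SE, n = 2 per genotype; 95% interval -0.06 to 0.93; adjusted p = 0.183 by limma).

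Ccl17 (thymus and activation regulated chemokine), a ligand of Ccr4, was read at chr8:97335770-97335829, plus strand. Its signal was 1125 and 1285 in wild type cells, against 1482 and 1119 in SerpinB2-/- cells. The SerpinB2-/- arrays again held both the highest and the lowest value. The log2 change was 0.07 ± 0.10 (SE, n = 2 per genotype; 95% interval -0.18 to 0.32; adjusted p = 0.642 by limma).

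Ccl25 (thymus expressed chemokine), the ligand of Ccr9, had 4 probes at different positions on chromosome 8. The brightest, at chr8:4359916-4359975, gave 2282 and 2568 in wild type cells, against 2432 and 1939.6 in SerpinB2-/- cells. The raw signals overlapped, and after scaling both SerpinB2-/- arrays lay below both wild type arrays. The log2 change of Ccl25 was -0.18 ± 0.08 (SE, n = 2 per genotype; 95% interval -0.38 to 0.01; adjusted p = 0.166 by limma) and did not pass. The Ccl25 probe at chr8:4348678-4348737 gave 124, 154, 136 and 108 (wild type first, in replicate order), and its log2 change was -0.22 with an adjusted p of 0.189 in the limma fit of single probes. The Ccl25 probe at chr8:4327833-4327892 gave 43.1, 40.5, 37.8 and 35.7, and its log2 change was -0.21 with an adjusted p of 0.170 in that fit. These 3 probes thus gave changes of like size, none past the threshold. The Ccl25 probe at chr8:4357861-4357920 gave 5.24, 5.55, 5.54 and 6.15 and was well above background on no array.

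Ccl20 and Ccl28, epithelial chemokines that act through Ccr6 and Ccr10, were too dim to be tested. The Ccl20 probe, at chr1:83115682-83115741, gave 5.23 and 6.11 in wild type cells, against 5.50 and 5.99 in SerpinB2-/- cells. None of its 4 spots was well above background on any array. The Ccl28 probe, at chr13_random:362589-362648 (a stretch of chromosome 13 without a fixed place in build mm9), gave 10.5 and 14.7 in wild type cells, against 33.9 and 24.8 in SerpinB2-/- cells. It was well above background on no wild type array and on 1 of the 2 SerpinB2-/- arrays, replicate 1, where all 4 of its spots were. When no filter on dim probes was used, its log2 change was 1.20, with an unadjusted p of 0.00231 and an adjusted p of 0.0814 in limma.

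Signals of different probes cannot be set against each other as levels, but a change in their log2 distance is free of any factor shared by all probes of an array, such as its 75th percentile. Quantile normalization, which uses no single factor, can still move it. The distance of Ccl2 over Ccl7 was 3.97 and 3.93 in wild type cells, against 3.81 and 3.79 in SerpinB2-/- cells, a change of -0.15. The distance of Ccl2 over Ccl12 was 4.33 and 4.47 in wild type cells, against 4.28 and 4.68 in SerpinB2-/- cells, a change of 0.08 with overlapping genotypes (exact permutation test, two-sided p = 1). The distance of Ccl7 over Ccl12 was 0.36 and 0.53 in wild type cells, against 0.48 and 0.88 in SerpinB2-/- cells, a change of 0.23 with overlapping genotypes (exact permutation test, two-sided p = 0.667). Against each other these 3 genes thus moved by 0.08 to 0.23, while each of them fell by more than 1 on the log2 scale between genotypes. Over the 17 alternatives the change of Ccl2 over Ccl7 ran from -0.29 to -0.11, that of Ccl2 over Ccl12 from -0.15 to 0.28 and that of Ccl7 over Ccl12 from 0.03 to 0.43. The change of -0.15 between Ccl2 and Ccl7 was larger than the gaps between replicates, 0.04 and 0.01, and its genotypes did not overlap.

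The distances to Ccl8 and Ccl5, which did not pass the threshold, moved further. Each of these pairs sets a gene that fell against 1 that did not pass. Its change therefore restates the log2 changes given above and is no separate result. The signals of Ccl8 were close to the lowest that was well above background. The distance of Ccl12 over Ccl8 was 3.83 and 4.25 in wild type cells, against 2.46 and 2.37 in SerpinB2-/- cells, a change of -1.63. The distance of Ccl2 over Ccl5 was 5.28 and 5.17 in wild type cells, against 3.59 and 3.07 in SerpinB2-/- cells, a change of -1.90. The distance of Ccl9 over Ccl5 was 3.21 and 2.62 in wild type cells, against 2.01 and 1.43 in SerpinB2-/- cells, a change of -1.19. In these 3 pairs, and for Ccl2 over Ccl7, the genotypes did not overlap (exact permutation test, two-sided p = 0.333, the smallest that 2 against 2 arrays can give). Taken as single genes, 64.3% of all genes tested had genotypes that did not overlap, 31.9% with the SerpinB2-/- arrays lower. No such share was computed for distances between 2 genes.

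By position 6 of the 10 chemokines lie on chromosome 11, in a pair of groups, and each group held genes that fell and genes that did not pass the threshold. From the Ccl2 probe to the Ccl7 probe was 10.01 kb, from Ccl7 to Ccl12 56.1 kb, and from Ccl12 to Ccl8 13.3 kb. Within 200 kb on either side of the Ccl2 group, 5 genes were tested, all of them CC chemokines, and 3 fell (Ccl2, Ccl7 and Ccl12). The other CC chemokine tested there, Ccl1, had a log2 change of -0.33 (adjusted p = 0.0943 by limma). The Ccl5 and Ccl9 probes lay 48.9 kb apart. Within 200 kb of that group 12 genes were tested, of which 2 fell and 0 rose, beside 9.67% lower and 6.01% higher over all genes. The 2 that fell in this window were Ccl9 and E230016K23Rik (log2 change -0.68, adjusted p = 0.00906 by limma). Of the 7 genes there that are not CC chemokines, E230016K23Rik, named here after its values were seen, was the 1 past the threshold. It was well above background on both wild type arrays and on 1 of the 2 SerpinB2-/- arrays, so its change rests partly on a dim signal. Ccl6, Ccl3 and Ccl4, the other CC chemokines tested there, had log2 changes of -0.52, -0.80 and -1.15 and did not pass (adjusted p = 0.0783, 0.0938 and 0.0564 by limma).

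**Figure D3:**
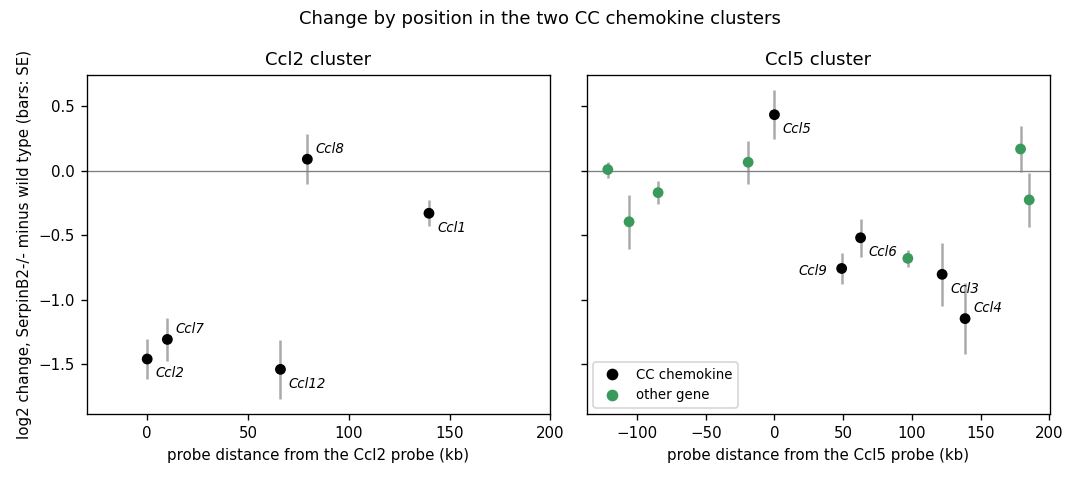
Log2 change (SerpinB2-/- minus wild type, bars SE) of the tested genes within 200 kb of the Ccl2 group (left) and of the Ccl5 and Ccl9 group (right) against the distance in kb from the Ccl2 or Ccl5 probe, with CC chemokines in black and other genes in green. Ccl12 and Ccl8 lie 13.3 kb apart at -1.54 and 0.09, and Ccl9 and Ccl5 lie 48.9 kb apart at -0.76 and 0.44.

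Upstream sequence is shown for Ccl12 and Ccl8, the neighbours of which the first fell and the second did not pass, and for Ccl9, the gene of the other group that fell. RefSeq entries on assembly GRCm38.p6 gave the promoters of 7 of the 10 genes, and none was used for Ccl2, Ccl7 and Ccl5. The 250 bases before each start were read 5′ to 3′ on the gene's strand. Capitals mark matches, on either strand, to a loose form of the NF-kB site (GGG and CC with any 5 bases between them), TGANTCA (the AP-1 site) or TATAAA (the TATA box).
Ccl12 (chr11:82101595-82101844, plus strand): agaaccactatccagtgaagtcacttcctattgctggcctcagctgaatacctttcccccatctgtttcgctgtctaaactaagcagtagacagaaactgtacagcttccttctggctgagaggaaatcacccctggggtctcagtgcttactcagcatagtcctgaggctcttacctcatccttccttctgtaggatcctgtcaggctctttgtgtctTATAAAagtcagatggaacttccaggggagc
Ccl8 (chr11:82114935-82115184, plus strand): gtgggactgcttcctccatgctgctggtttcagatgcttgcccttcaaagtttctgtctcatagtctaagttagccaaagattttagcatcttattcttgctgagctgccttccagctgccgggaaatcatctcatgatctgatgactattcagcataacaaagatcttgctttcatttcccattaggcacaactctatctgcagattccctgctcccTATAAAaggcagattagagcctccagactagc
Ccl9 (chr11:83578637-83578886, minus strand): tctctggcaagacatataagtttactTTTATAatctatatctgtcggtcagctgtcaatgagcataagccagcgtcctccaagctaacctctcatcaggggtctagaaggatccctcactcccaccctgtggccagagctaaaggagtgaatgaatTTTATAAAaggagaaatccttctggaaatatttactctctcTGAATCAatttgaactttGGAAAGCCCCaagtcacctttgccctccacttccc
Ccl12 and Ccl8 each held a TATAAA, 31 and 32 bases before the start, and no match to the other motifs in this window. Ccl9 held GGAAAGCCCC 35 bases and TGAATCA 53 bases before the start, besides TATA matches of which a pair overlap. Of 32851 mouse promoters of the same length, 45.8% held the loose NF-kB site, 6.75% held TGANTCA and 12.4% held TATAAA. Aligned end to end, the Ccl12 and Ccl8 windows were identical at 150 of 230 aligned positions (65.2%), against 56.3% for Ccl12 and Ccl9 and 61.2% for Ccl8 and Ccl9. Of the genes with an entry that is not shown, Ccl20 and Ccl28, too dim to be tested, also held the loose NF-kB site. Ccl17 and Ccl25, which did not pass the threshold, did not hold it. None of these genes held the AP-1 site. These matches describe letters and do not show binding.

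Among the other CC chemokines, a list of 14 genes, 10 had a probe and 7 could be tested. Of the 7, 1 fell and 0 rose, and at an unadjusted p under 0.05 limma gave 5 lower and 1 higher. Over all 18392 genes tested, that unadjusted p gave 3429 lower and 2860 higher. Ccl24 (eotaxin 2), a ligand of Ccr3, gave 598 and 549 in wild type cells, against 240.1 and 242 in SerpinB2-/- cells. Its genotypes lay far apart and it fell by 1.28 on the log2 scale (SE 0.11, n = 2 per genotype, adjusted p = 0.00801 by limma). The median log2 change of the 7 was -0.52. How many of the 7 passed depended on the setting: 5 with normexp background correction, 4 with a trended variance model, 3 with median scaling, and 3 without SerpinB2-/- replicate 1. Ccl11, Ccl22 and Ccl26 were too dim to be tested.

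Most receptors for these ligands were too dim to be tested. Of 14 CC chemokine receptors with a probe, 1 could be tested, Ccr8, whose log2 change was 0.03 ± 0.11 (SE, n = 2 per genotype, adjusted p = 0.887 by limma), so 0 receptors passed, at an unadjusted p under 0.05 too. The Ccr2 probe, for the main receptor of Ccl2, Ccl7 and Ccl12, gave 5.19 and 5.61 in wild type cells, against 5.61 and 6.09 in SerpinB2-/- cells. It was not well above background on any array, so no fold is given.

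Of the subunits of NF-kB and AP-1 and other regulators of Ccl2, some of which act on its mRNA, 1 passed the threshold. All 20 genes of this list were tested, and 1 fell and 0 rose, with a median log2 change of 0.01 and a range of -0.40 to 0.24. At an unadjusted p under 0.05 limma gave 2 lower and 3 higher, beside 3429 lower and 2860 higher of all 18392 genes tested. The 1 gene that fell was Junb, an AP-1 subunit, with signals of 367 and 396 in wild type cells, against 315 and 276 in SerpinB2-/- cells (log2 change -0.40 ± 0.06 SE, n = 2 per genotype, adjusted p = 0.0175 by limma). Junb missed the threshold without any 1 of the 4 arrays, with adjusted p from 0.0549 (without SerpinB2-/- replicate 1) over 0.0662 (without SerpinB2-/- replicate 2) and 0.0781 (without wild type replicate 2) to 0.0800 (without wild type replicate 1). With median scaling 1 of the 20 was lower and 4 were higher.

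Leukocytes are a source of several of these chemokines, and many leukocyte markers fell as well. Of 31 leukocyte and macrophage markers, 30 had a probe and 24 were tested, of which 13 fell and 0 rose. The median log2 change of the 24 was -0.54. At an unadjusted p under 0.05 by limma 17 were lower and 0 higher, beside 3429 and 2860 of all 18392 genes tested. The summed signal of the 24 was 2052% and 1888% of the array's 75th percentile in wild type cells, against 1567% and 1488% in SerpinB2-/- cells. Such a sum follows the brightest probes of a list and does not describe its other genes. The brightest here was Itgam (11920 and 11694 in wild type cells), with a log2 change of -0.09. The largest falls were those of Ly6g (-1.28 ± 0.09), Fcgr1 (-1.08 ± 0.06), Coro1a (-1.02 ± 0.10) and Laptm5 (-0.88 ± 0.19), as log2 change ± SE with n = 2 per genotype. Ptprc, the pan-leukocyte antigen CD45, gave 75.1 and 82.6 in wild type cells, against 63.4 and 49.9 in SerpinB2-/- cells (log2 change -0.51 ± 0.08 SE, adjusted p = 0.0211 by limma). Cd68, a macrophage marker, gave 2156 and 2426 in wild type cells, against 2226 and 1549 in SerpinB2-/- cells (log2 change -0.33 ± 0.13 SE, adjusted p = 0.148 by limma). Probes of Spi1, S100a9, Cd3g, Cd8a and Ms4a1 were among those that did not pass the detection filter.

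The count of 13 leukocyte markers was 5 without wild type replicate 1, 8 without wild type replicate 2, 16 without SerpinB2-/- replicate 1 and 7 without SerpinB2-/- replicate 2. Adjusted p of Ptprc was 0.0837, 0.0870 and 0.0540 without wild type replicate 1, wild type replicate 2 and SerpinB2-/- replicate 2, and that of Laptm5 was 0.147, 0.0934 and 0.0601. With normexp background correction the log2 change of Ptprc was -0.23 (adjusted p = 0.0666 by limma) and that of Fcgr1 was -0.55. Quantile normalization gave an adjusted p of 0.0706 for Ptprc and 0.0835 for Laptm5, and the mean of a gene's probes gave 0.0502 for Laptm5. Cd68 passed without SerpinB2-/- replicate 1 (adjusted p = 0.0374 by limma). Of 10 endothelial markers tested, 9 fell and 0 rose, with a median log2 change of -1.23. Their summed signals were 516% and 509% of the 75th percentile in wild type cells, against 310.5% and 379% in SerpinB2-/- cells. Kdr, the brightest of the 10, had a log2 change of 0.05. These 10 include Tie1, which only 1 SerpinB2-/- array measured well above background; of the 9 markers well above background on all 4 arrays, 8 fell, with a median log2 change of -1.08. Of 13 tubular epithelial markers 5 fell and 0 rose (median -0.23; sums 28415% and 28441% in wild type, 22529% and 23669% in SerpinB2-/- cells). Of 9 fibroblast markers 2 rose and 0 fell (median 0.31, with Dcn measured well above background by only 1 SerpinB2-/- array; sums 17260% and 13981% in wild type, 18052% and 21022% in SerpinB2-/- cells). The part of these marker changes in the falls of Ccl2, Ccl7, Ccl12 and Ccl9 was not tested.

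**Figure D4:**
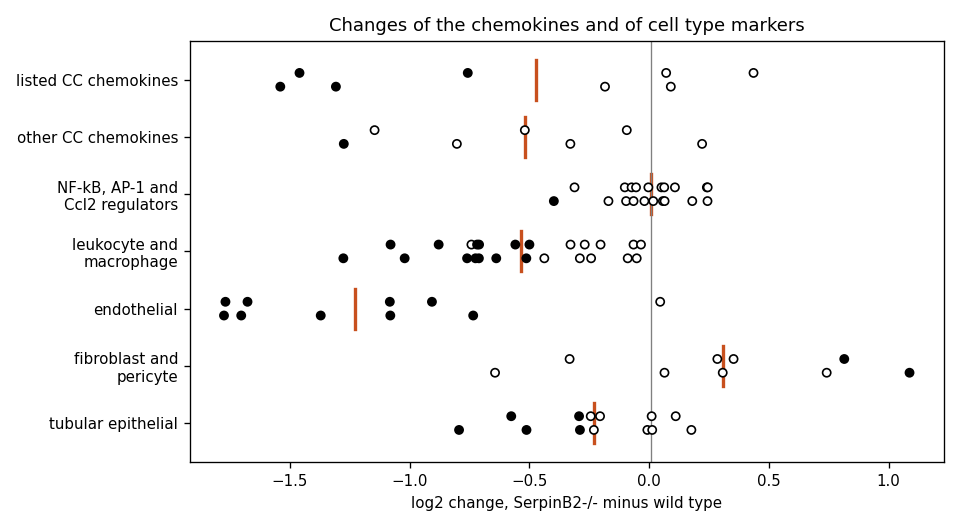
Log2 change (SerpinB2-/- minus wild type) of each tested gene by list, with filled points past the limma threshold, a short line at each list's median and a grey line at the median of all genes (0.01). The medians are -0.47 for the 8 chemokines, 0.01 for the NF-kB and AP-1 list, -0.54 for the leukocyte markers and -1.23 for the endothelial markers.

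Among all genes, those whose pattern over the 4 arrays was nearest to that of Ccl2 were found by the Euclidean distance between mean-centred log2 values, a description over 4 arrays. With predicted and clone names left out, the nearest 4 were Ahrr (distance 0.106), Tmprss11e (0.149), Abcc2 (0.154) and Ccl7 (0.155). With those names counted, 4 genes were nearer to Ccl2 than Ccl7 was. Ahrr is the aryl hydrocarbon receptor repressor, Tmprss11e a transmembrane serine protease and Abcc2 an export pump of the apical tubule membrane. Of the SerpinB2-/- arrays only 1 measured Ahrr well above background. Their log2 changes lay between -1.46 (Ahrr) and -1.31 (Ccl7). Among the chemokines tested, Ccl12 came next at 0.303, with 36 genes of any name nearer to Ccl2. Ccl9 followed at 0.782, with 457 genes of any name nearer.

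**Figure D5:**
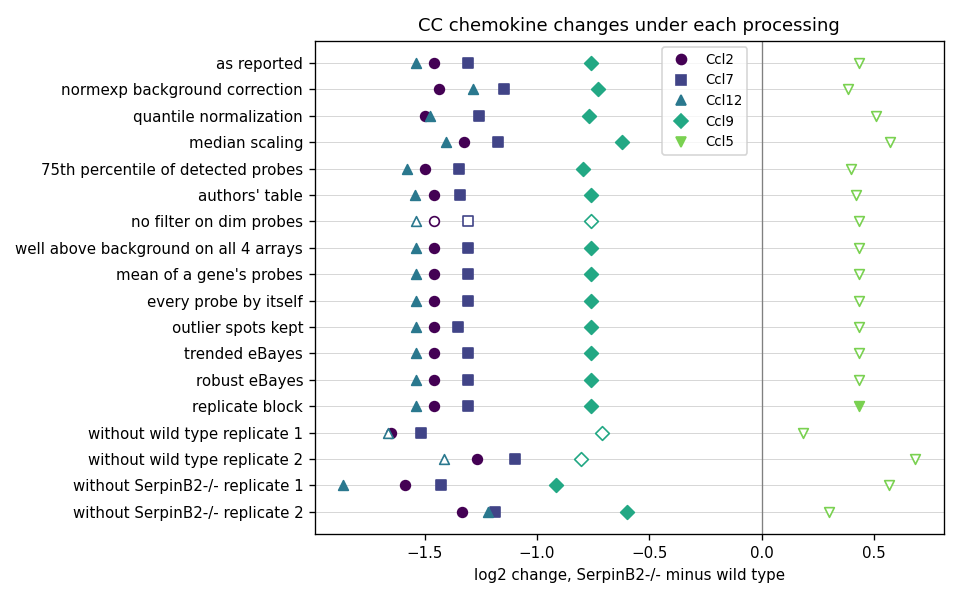
Log2 change (SerpinB2-/- minus wild type) of Ccl2, Ccl7, Ccl12, Ccl9 and Ccl5 as reported and under the 17 alternatives, with filled symbols where the adjusted p from limma was under 0.05. Ccl2, Ccl7, Ccl12 and Ccl9 lie below 0 and Ccl5 above 0 under every setting drawn, and Ccl2 and Ccl7 are open only where no filter on dim probes was used.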

How the data were processed

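Total RNA (150 ng per sample, per the labels' protocols) was read on 4 arrays on 1 slide, 2 per genotype label, with the arrays of a genotype side by side, so slide position and genotype cannot be told apart. The deposited intensity values were made in Agilent Feature Extraction (10.7.3.1) by subtracting background and removing trends, per the file headers. The authors' table of processed intensity (75th percentile 1500, floor 4, medians 76, 77, 68 and 71, following the scanner signal of each array by a factor of 0.698 to 0.787) was an alternative. How it was made is not given in the sources used here.

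Control spots (17263) and outlier spots were left out, the 4 spots of a probe were averaged as log2, and the 75th percentile of each array was subtracted. Probes counted as detected if more than 50% of their spots were well above background on both arrays of a genotype. The brightest detected probe stood for a gene. Names were updated through a RefSeq table of GRCm38.p6 (28328 probes matched by accession, 1359 of them renamed, 3400 by symbol, 243 by an older symbol, while 7458 kept the file's name), and positions are those of the files (mm9). limma 3.58.1 in R 4.3.3 compared 18392 genes (lmFit, eBayes, Benjamini-Hochberg, threshold 0.05, 95% intervals). Alternatives changed background correction, scaling, detection filter, probe choice, variance model, pairing and replicates. The script was tested on simulated data.

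All 10 chemokines and their probes were reported. In the other lists up to 4 genes past the threshold with the largest change were named, besides Ccr2, Ptprc, Cd68 and Serpinb2. The rule also took in the 5 genes nearest to Ccl2, with predicted and clone names left out. Some genes that this rule takes in are not reported here. The genes and lists were chosen with earlier results of these data known. The median absolute log2 difference was 0.08 between arrays of 1 genotype and 0.14 to 0.16 between genotypes.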

Additional observations from a re-analysis of the deposited data

How the results depend on the processing

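Alternatives were run for the 8 tested chemokines, the counts of their lists and Ccl24, Junb, Serpinb2 and the named leukocyte markers, not for the endothelial, fibroblast and tubular lists, the genes nearest to Ccl2 or E230016K23Rik. Among those run, no gene past the threshold as reported changed direction under the 17 alternatives (16 for Serpinb2). Ccl2 ranged from -1.65 to -1.27, Ccl7 from -1.52 to -1.10, Ccl12 from -1.86 to -1.22 and Ccl9 from -0.92 to -0.60 on the log2 scale. Ccl5 ranged from 0.19 to 0.68, Ccl8 from -0.19 to 0.37, Ccl17 from -0.05 to 0.21 and Ccl25 from -0.26 to -0.05. Of the 10 chemokines, 4 passed, and 2 to 4 passed with 1 array left out, keeping the filter and probes of all 4 arrays and assuming that the lone array varied like the others. With no filter on dim probes 0 passed (adjusted p by limma 0.0689 for Ccl2, 0.0766 for Ccl7, 0.0914 for Ccl12 and 0.103 for Ccl9), and so did 0 of the other CC chemokines, 0 of the NF-kB and AP-1 list and 0 of the leukocyte markers. That setting tested 29875 genes and passed 3. Of all genes, 5583 passed with median scaling and 753 to 1579 with 1 array left out, against 2884. Using the 75th percentile of detected probes gave 2163 lower and 860 higher. Serpinb2 had no value where probes had to be well above background on all 4 arrays.

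The other CC chemokines, 1 past the threshold, gave 5 with normexp, 3 with median scaling, 2 on probes well above background on all 4 arrays, 4 with trended eBayes and 1 to 3 with 1 array left out. The NF-kB and AP-1 list, 1 past the threshold, gave 5 with median scaling, 2 on probes well above background on all 4 arrays, 2 with every probe by itself, 4 with trended eBayes and 0 with any array left out. The leukocyte markers, 13 past the threshold, gave 8 with quantile normalization and 5 to 16 with 1 array left out. The cause was not tested.

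The titles number replicates 1 and 2 in both genotypes, and same-numbered arrays deviated together with a correlation of 0.26 over 18392 genes, but with 2 pairs the numbers are not shown to pair the arrays. With the replicate block 2143 genes passed, 5 of the 8 chemokines passed (4 lower, and Ccl5 higher with an adjusted p of 0.0403 by limma), and 4 of the other CC chemokines passed. Signal near background limits what can be said of Ccl8, Ccl20 and Ccl28.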
